A study of Mus musculus with 18 samples.

Results

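Glycolysis and hypoxia response genes are described here across genotypes of mouse embryos, as 35 listed genes of 55138 in the deposited FPKM table, matched by symbol. They are 17 glycolytic enzymes, 5 genes of glucose and lactate transport and flux control, 12 genes of the response to low oxygen, and Hif1a, which encodes the oxygen-regulated subunit of hypoxia-inducible factor. All 35 passed the filter on low counts at both stages. RNA came from whole embryos with the head dissected away, in 18 libraries that form 6 groups of 3. At embryonic day 9.5 (E9.5) the groups were homozygous Del(i9-13) and wild type. At E10.5 they were homozygous Del(i9-13):Hoxb13hd, homozygous Hoxb13hd, homozygous Del(i9-13) and wild type. Wild type embryos were littermates of mutants, per the labels' protocols. Del(i9-13) is labelled as a mutation of the HoxB cluster, and the sources used here do not say what hd means. Poly(A) enrichment was used at E9.5 and ribosomal depletion at E10.5, both with stranded kits, so stage and library type cannot be told apart. The labels do not say whether a library is 1 embryo or a pool, so p-values measure only how far these libraries spread, which may be technical.

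Glycolysis breaks glucose down to pyruvate through a chain of cytosolic enzymes, and lactate dehydrogenase then converts pyruvate to lactate where it is not burned in mitochondria. When oxygen is scarce, hypoxia-inducible factor escapes the prolyl hydroxylases that mark it for breakdown, binds a short core motif near its targets, and raises many glycolytic enzymes along with genes of vessel growth and mitochondrial turnover. Mid-gestation mouse embryos rely heavily on glycolysis, and in the presomitic mesoderm glycolytic activity is known to be highest towards the tail.

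Library totals ran from 19.3 M to 35.9 M counts, and the listed genes together took 0.827% to 1.6% of the counts of a library. Hoxb13, the last gene of the HoxB cluster, separated the libraries with the Del(i9-13) label from those without it, and its counts did not separate libraries with hd from those without. It had 1300, 1299 and 1421 counts in E9.5 Del(i9-13) and 4, 1 and 4 in E9.5 wild type. At E10.5 it had 255, 307 and 228 in Del(i9-13):Hoxb13hd, 0, 1 and 2 in Hoxb13hd, 269, 130 and 288 counts in Del(i9-13) libraries, and 25, 3 and 1 counts in wild type libraries. Of 12 head markers, Otx2, Six3, Six6 and Rax had 0 to 7 counts summed over each group, with the head dissected away. Others were present, such as Pax6, which the spinal cord also uses, at 1864 to 3618 counts, Lhx2 at 684 to 1961, Emx2 at 346 to 931 and En1 at 107 to 408. Xist and Ddx3y differed between libraries of every group except E9.5 Del(i9-13), so groups were not balanced for sex. E9.5 Del(i9-13) held 3 libraries with abundant Ddx3y reads and E9.5 wild type held 1, so genotype and sex were partly confounded at E9.5. The spread of the listed genes differed between groups, with a median coefficient of variation of 5.32% in Del(i9-13):Hoxb13hd, 11.2% in Hoxb13hd, 13.5% in Del(i9-13) and 9.5% in wild type at E10.5.

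The core motif of hypoxia-inducible factor was looked for upstream of the listed genes, since it is the sequence feature known for targets of that factor. RefSeq promoter sequences (GRCm38.p6) were at hand for 32 of the 35 genes, in 46 windows of 250 bases before a start site. The letters ACGTG or GCGTG, on either strand, occurred in 37 of the 46 windows (80.4%), against 12679 of 32851 windows of all genes (38.6%). Matches could overlap, since ACGTG and GCGTG can share an end base on a strand and CACGTG holds ACGTG on both strands. Hypoxia response genes held a core in 10 of 11 windows (90.9%), transport genes in 5 of 6 (83.3%) and enzymes in 21 of 28 (75%). These shares describe letters in a window and were not adjusted for base composition. Below, 3 windows are printed, 5' to 3' on the gene's strand, in lower case with the core in capitals. Pfkl and Aldoa stood among the 4 genes with the smallest p in the comparison with most calls, and Ldhb, added after its values were seen, was the gene called between Del(i9-13):Hoxb13hd and Hoxb13hd. Pfkl (chr10:78009808-78010057, minus strand, 59.2% G or C) held GCGTG with its first base 99 bases before the start. Aldoa (chr7:126799255-126799504, minus strand, 67.6% G or C) held CACGT, which is ACGTG on the other strand, 126 bases before. Of its other windows, 1 overlaps this window and held the same core 202 bases before its start, and 1 held none. Ldhb (chr6:142507958-142508207, minus strand, 56.4% G or C) held GCGTG 126 bases before.
Pfkl: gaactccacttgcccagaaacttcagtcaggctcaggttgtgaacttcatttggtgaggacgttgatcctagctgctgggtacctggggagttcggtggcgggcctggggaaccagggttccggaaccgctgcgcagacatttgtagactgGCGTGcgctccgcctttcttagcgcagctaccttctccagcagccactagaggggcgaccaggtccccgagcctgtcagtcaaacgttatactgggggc
Aldoa: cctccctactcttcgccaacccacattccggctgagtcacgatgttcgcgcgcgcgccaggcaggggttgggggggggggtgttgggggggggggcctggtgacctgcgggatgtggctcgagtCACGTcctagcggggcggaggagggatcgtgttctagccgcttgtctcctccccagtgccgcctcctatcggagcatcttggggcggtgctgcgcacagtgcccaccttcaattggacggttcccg
Ldhb: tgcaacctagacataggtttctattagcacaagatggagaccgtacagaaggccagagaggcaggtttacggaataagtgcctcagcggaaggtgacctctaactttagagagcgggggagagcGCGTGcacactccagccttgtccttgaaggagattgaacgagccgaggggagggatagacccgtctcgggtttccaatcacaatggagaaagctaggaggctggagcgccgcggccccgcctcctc

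By level per transcript length, a few enzymes dominated the pathway in every group. Ldha, the muscle-type lactate dehydrogenase subunit that favours lactate formation, averaged 1353 ± 131 FPKM in E9.5 Del(i9-13) and 1174 ± 70.5 FPKM in E9.5 wild type (SD, n = 3 each), the highest of the 35 genes in wild type. Pkm, pyruvate kinase, was the highest at E10.5 in wild type, at 807 ± 60.0 FPKM. The glycolytic isoenzymes were unequal: in E10.5 wild type Aldoa stood at 382 ± 24.3 FPKM and Aldoc at 1.39 ± 0.102 FPKM. Eno1, the ubiquitous enolase, stood at 213 ± 22.9 FPKM there and Eno2, the neuronal form, at 0.261 ± 0.132 FPKM. Among the phosphofructokinases Pfkl had 56.7 ± 2.67 FPKM, Pfkm 14.9 ± 0.505 FPKM and Pfkp 2.96 ± 1.02 FPKM. Hk2, the inducible hexokinase, had 15.9 ± 1.09 FPKM and Hk1 8.01 ± 1.85 FPKM. Ldha exceeded Ldhb, the heart-type subunit, at 578 ± 58.4 FPKM against 55.5 ± 6.61 FPKM. Each of these isoenzyme gaps exceeded the spread between libraries. Hif1a had 45.6 ± 2.21 FPKM in E10.5 wild type. Adm, a vasodilator peptide gene, and Eno2 were the lowest of the 35 genes there, so changes in them rest on few reads.

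**Figure D1:**
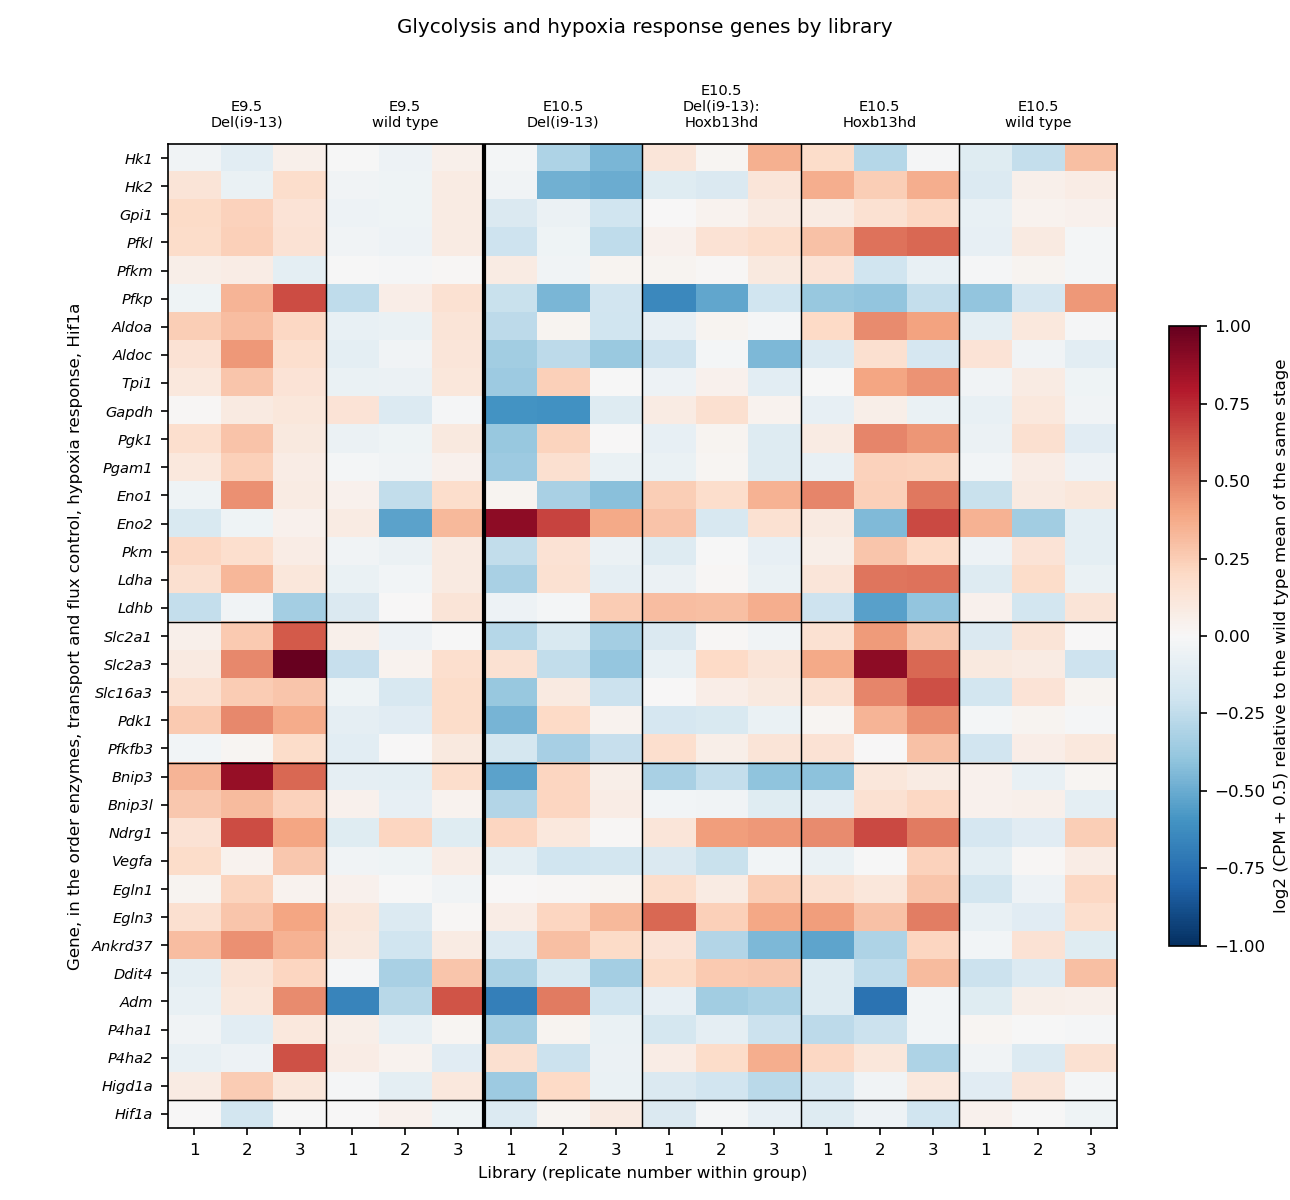
Log2(CPM + 0.5) of each of the 35 genes (down the page, by role) in each of the 18 libraries (across), as a difference from the wild type mean of the same stage; red is higher and blue lower. Most enzymes were higher in the 3 E9.5 Del(i9-13) libraries and in Hoxb13hd replicates 2 and 3, and many were lower in E10.5 Del(i9-13) replicate 1.

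Reads of Gapdh and Eno1 cannot be cleanly told from those of near-identical copies elsewhere in the genome. Gapdh, the enzyme that oxidises glyceraldehyde phosphate, had 78 annotated copies at 95% identity or more over at least 200 bases, and these held reads equal to 13.8% of its own. One copy, Gm13394 on chromosome 2 (chr2:28933610-28934609, mm10), is 99.9% identical over 1000 bases. Gm13394 had 0, 0 and 2 counts in E10.5 Del(i9-13):Hoxb13hd and 1827, 1875 and 1631 in Hoxb13hd. It had 3699, 3161 and 42 counts in E10.5 Del(i9-13) and 0, 2 and 1 in wild type. All 6 libraries at E9.5 held 4981 to 11531. At E10.5 the libraries thus divided between 1631 to 3699 reads and at most 42, and 1 Del(i9-13) library stood apart from its group. Gapdh itself was at 602, 601 and 836 CPM in E10.5 Del(i9-13), against 865, 978 and 891 CPM in wild type. Summed with its copies it was at 762, 754 and 849 CPM in Del(i9-13) and 879, 994 and 904 CPM in wild type. For Eno1 the copies held reads equal to 10.1% of its own, and E9.5 Del(i9-13) replicate 2, the library highest in Eno1 at 1718 CPM, had 23 counts on the copy Eno1b. The other 5 E9.5 libraries had 3008 to 7372. Which locus the reads came from was not tested. No other listed gene had copies with over 5% of its reads, except that Pfkp, the platelet phosphofructokinase, overlaps 748 bases of transcripts of its neighbour Pitrm1 and is uncertain for that reason.

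**Figure D2:**
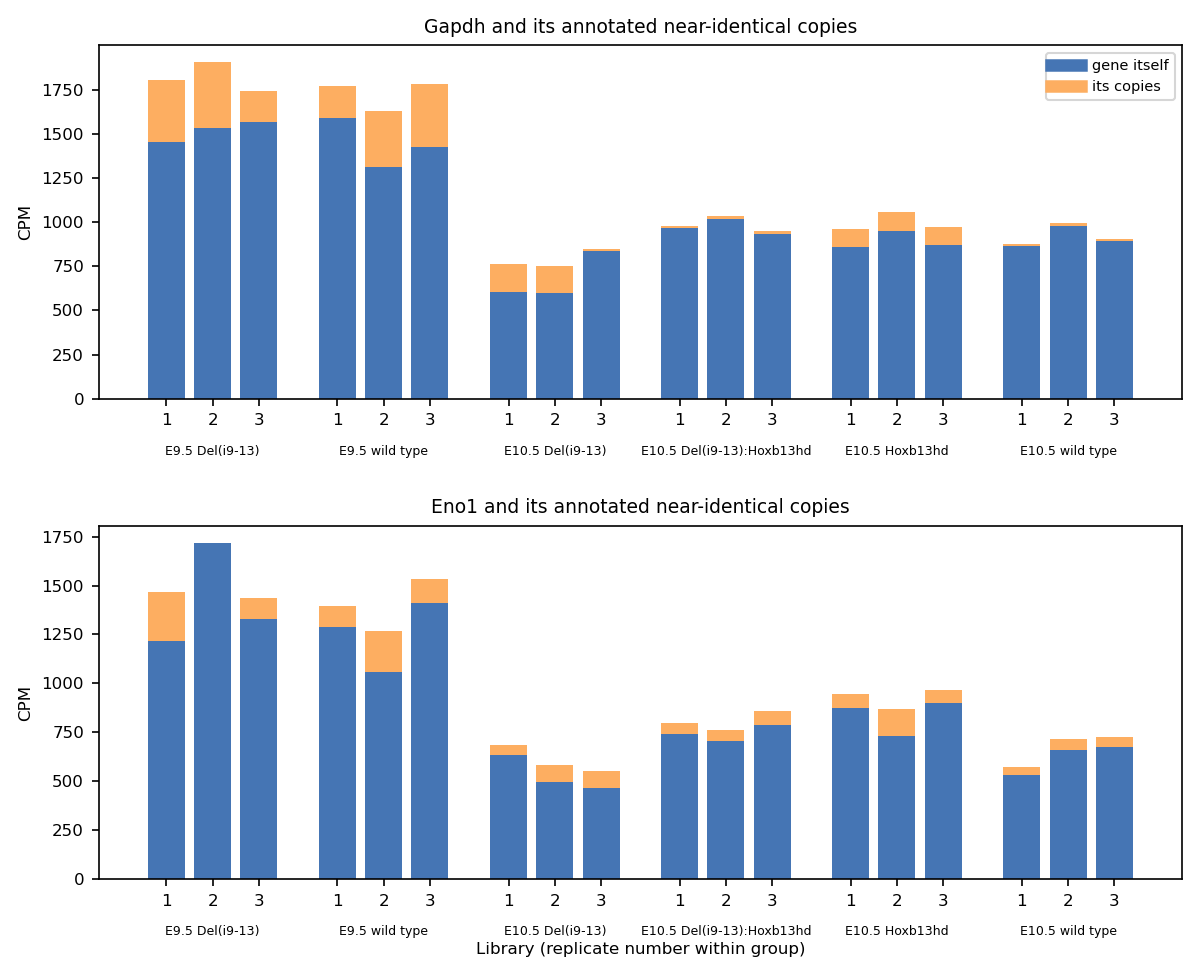
Stacked bars of CPM per library for Gapdh and Eno1 (lower part of each bar) and for their annotated near-identical copies (upper part). In E10.5 Del(i9-13) replicates 1 and 2 and in the 3 Hoxb13hd libraries the Gapdh copies hold reads that are nearly missing in the wild type libraries.

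At E9.5, enzymes, transporters and hypoxia response genes were mostly higher in Del(i9-13) than in wild type, by small amounts, and none of the 35 passed an adjusted p of 0.05 (Benjamini-Hochberg over the 16041 genes tested, edgeR's quasi-likelihood test). In this comparison 58 genes were called over the whole table, 0.362% of those tested. Of the listed genes 30 had a positive log2 difference, and 16 had an unadjusted p under 0.05, all of them higher and 0 lower, against 5.39% and 6.31% of all genes. For 12 genes every Del(i9-13) library exceeded every wild type library, and for 0 the reverse held, against 9.06% and 9.83% of all genes. The median log2 difference was 0.17 for the 17 enzymes, 0.33 for the 5 transport and flux genes and 0.24 for the 12 hypoxia response genes, beside 0.0018 over all genes. In bulk RNA, fewer cells of a type and less RNA per cell cannot be told apart. By library, the enzymes' median log2 difference from the wild type mean was 0.11, 0.24 and 0.11 in the Del(i9-13) libraries and -0.036, -0.045 and 0.094 in wild type. The hypoxia response genes stood at 0.12, 0.24 and 0.31 in the Del(i9-13) libraries and 0.025, -0.086 and 0.054 in wild type. Every Del(i9-13) library was thus above every wild type library in both groups of genes, with the wild type replicate 3 enzyme value close below the lowest mutant one. DESeq2 called 4 of the 35 genes here (Aldoa, Bnip3, Bnip3l and Pdk1) and limma on log2 FPKM called 0. Over the whole table DESeq2 called 329 genes (2.05%). Genotype and sex were partly confounded at this stage, and Pgk1 lies on the X chromosome. With Xist as a covariate 0 of the 35 genes were called, and 54 over the whole table.

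The 4 genes with the smallest p at E9.5 were Bnip3l, Pdk1, Aldoa and Bnip3. Bnip3l, a receptor for the removal of mitochondria by autophagy, had 155, 159 and 149.8 CPM in Del(i9-13), against 132, 121 and 131 CPM in wild type. The groups did not overlap (log2 difference 0.27, SE 0.055, adjusted p 0.112). Pdk1, a kinase that shuts pyruvate out of the citric acid cycle, had 127, 148 and 137 CPM in Del(i9-13), against 99.9, 98.2 and 120.3 CPM in wild type. Again the lowest mutant library was above the highest wild type one (log2 difference 0.37, SE 0.090, adjusted p 0.187). Aldoa, which splits fructose bisphosphate, had 1204, 1256 and 1169 CPM in Del(i9-13), against 964, 965 and 1110 CPM in wild type. All 3 mutant libraries were above the wild type ones (log2 difference 0.26, SE 0.064, adjusted p 0.189). Bnip3, a relative of Bnip3l with the same role, had 48.8, 70.4 and 57.4 CPM in Del(i9-13), against 35.9, 35.9 and 43.3 CPM in wild type. Here Del(i9-13) replicate 2 was the highest and the groups did not overlap (log2 difference 0.62, SE 0.15, adjusted p 0.21). The other genes without overlap were Pfkl, Gpi1, Ldha, Pgk1, Pgam1, Aldoc, Egln3 and Ankrd37, with log2 differences of 0.14 for Pgam1 to 0.41 for Ankrd37. Ldhb was lower in the mean, at 39.9 ± 4.41 CPM in Del(i9-13) and 45.8 ± 4.28 CPM in wild type, within the spread (adjusted p 0.467). Hif1a had a log2 difference of -0.059 (SE 0.063, adjusted p 0.752), and P4ha1, a collagen prolyl hydroxylase, had -0.0060 (SE 0.066).

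The glucose transporters at E9.5 varied widely among the Del(i9-13) libraries. Slc2a3, the high-affinity neuronal-type glucose transporter, had 385, 505 and 892 CPM in Del(i9-13), against 308, 370 and 407 CPM in wild type. Del(i9-13) replicates 3 and 2 were above every wild type library and replicate 1 lay within the wild type range (log2 difference 0.72, SE 0.36, adjusted p 0.527). Slc2a1, the widespread glucose transporter, had 509.7, 591 and 753 CPM in Del(i9-13), against 510.1, 476 and 490.2 CPM in wild type. Again replicates 3 and 2 were above every wild type library, with replicate 3 the highest, and replicate 1 was level with wild type replicate 1 (log2 difference 0.33, SE 0.14, adjusted p 0.428). Replicate 3 was also the highest in the summed level of 16 liver bud and visceral endoderm markers, which stood at 152, 354 and 1489 CPM in Del(i9-13), against 48.9, 52.4 and 157 CPM in wild type, with 15 of the 16 higher, 0 called and 5 at an unadjusted p under 0.05. Neuron markers were at 129.5, 111 and 88.7 CPM in Del(i9-13) and 184, 185 and 154 CPM in wild type, with 15 of 15 lower, 0 called and 12 at an unadjusted p under 0.05. Heart muscle markers were lower in 12 of 12 tested, at 33.9 to 42.9 CPM in Del(i9-13) and 38.4 to 101 CPM in wild type. Trunk markers were higher in 8 of 12, 0 of them at an unadjusted p under 0.05, and lower in 4, 1 of them at that p. Among them the tail bud gene T averaged 52.6 ± 0.950 CPM in Del(i9-13) and 28.4 ± 15.5 CPM in wild type, without overlap (SD, n = 3 each; log2 difference 0.90, SE 0.52, adjusted p 0.582), and Cdx2 29.1 ± 3.35 CPM in Del(i9-13) and 22.4 ± 5.81 CPM in wild type (adjusted p 0.523). No marker of the liver, neuron, heart or trunk lists was at 0 counts in either group, and the part of these lists in the E9.5 differences was not tested. Without Del(i9-13) replicate 3 the median of the hypoxia response genes was 0.15 in place of 0.24.

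At E10.5, the enzymes and transporters of Del(i9-13) lay slightly below wild type and none of the 35 genes passed the test. Of 17202 genes tested, 84 were called in this comparison (0.488%). Of the listed genes 27 had a negative log2 difference, 5 lower and 1 higher had an unadjusted p under 0.05, against 4.69% and 4.44% of all genes (9.13% in all), and 4 were lower and 1 higher without overlap, against 6.68% and 6.37%. The median was -0.13 for the enzymes, -0.16 for transport and flux genes and -0.043 for hypoxia response genes, beside 0.0020 over all genes. DESeq2 called 1 of the 35, Gapdh, among 276 genes (1.6%) over the whole table, and limma called 0 of the 35. The 4 smallest p belonged to Gapdh, Slc2a1, Hk2 and Pfkfb3. Gapdh, whose values per library are given above, was lower in all 3 Del(i9-13) libraries (log2 difference -0.42, SE 0.11, adjusted p 0.168). Its log2 difference was -0.23 (adjusted p 0.322) with the copies' reads added. Slc2a1 had 216, 236 and 207 CPM in Del(i9-13), against 237, 287 and 263 CPM in wild type. The highest mutant library lay just under the lowest wild type library (log2 difference -0.26, SE 0.089, adjusted p 0.351). Hk2 had 121, 88.5 and 87.6 CPM in Del(i9-13), against 112, 128 and 130.2 CPM in wild type. Replicate 1 of Del(i9-13) was within the wild type range and the other 2 were below it (log2 difference -0.32, SE 0.12, adjusted p 0.386). Pfkfb3, which makes the activator of phosphofructokinase, had 27.6, 24.7 and 26.5 CPM in Del(i9-13), against 27.3, 32.7 and 33.7 CPM in wild type. The groups overlapped (log2 difference -0.25, SE 0.098, adjusted p 0.444). The log2 difference of Hif1a was -0.0049 (SE 0.070, adjusted p 0.992).

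Del(i9-13) replicate 1 at E10.5 stood apart from its group in many of the listed genes. Its hypoxia response genes had a median log2 difference from the wild type mean of -0.21, against 0.16 and -0.015 in replicates 2 and 3, and -0.082, -0.026 and 0.067 in wild type. Bnip3 had 29.6, 50.2 and 44.8 CPM in Del(i9-13), against 44.5, 41.0 and 43.8 CPM in wild type. Replicate 1 was the lowest of these 6 and replicate 2 the highest. Nuclear genes of the respiratory chain moved with it, at -0.20, 0.22 and 0.14 in the Del(i9-13) libraries and 0.035, 0.060 and -0.094 in wild type. The same library had the highest liver bud and visceral endoderm level of the E10.5 set, with 2395, 435 and 385 CPM summed over 16 markers in Del(i9-13) and 738, 343 and 242 CPM in wild type. Its part in these values was not tested. Without this library Hk2 was called (log2 difference -0.49, adjusted p 0.0172), while 285 genes were called over the whole table. Without Del(i9-13) replicate 3, the library with almost no Gm13394 reads, Gapdh was called (-0.60, adjusted p 0.00737).

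**Figure D3:**
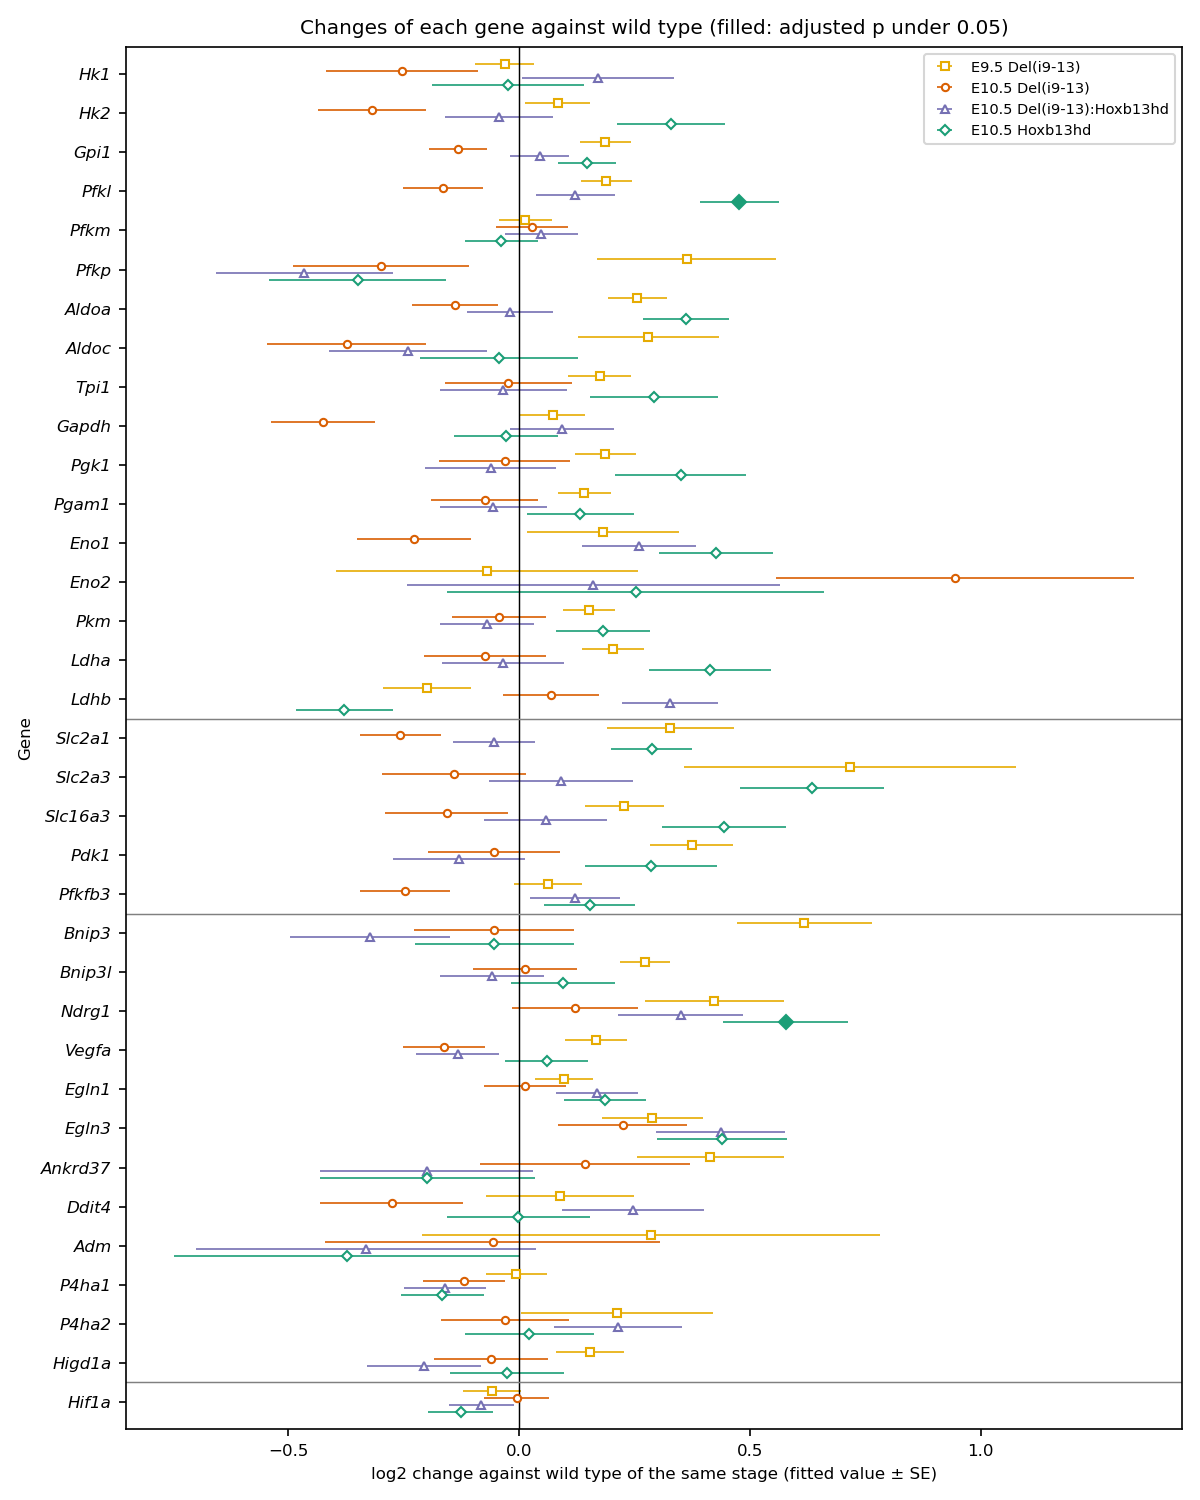
Fitted log2 difference from wild type of the same stage (points) with its standard error (bars) for each of the 35 genes in the 4 mutant groups; filled points passed an adjusted p of 0.05. Filled points are Pfkl and Ndrg1 in Hoxb13hd, and the E9.5 Del(i9-13) points lie mostly to the right of 0 while the E10.5 Del(i9-13) points lie mostly to its left.

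In Hoxb13hd at E10.5, the liver-type phosphofructokinase and a hypoxia target were raised. Of the 35 genes 2 were called, Pfkl and Ndrg1, both higher than in wild type, where 1.42% of all genes were called higher (3.01% in either direction, 517 genes). Pfkl, which catalyses the committed step of glycolysis, had 356, 424 and 433 CPM in Hoxb13hd, against 275, 309 and 287 CPM in wild type. All 3 Hoxb13hd libraries exceeded all wild type libraries, and replicate 1 was nearest to them. Pfkl rose by 0.48 on the log2 scale (SE 0.086, adjusted p 0.0161). Ndrg1, a stress-responsive gene raised by low oxygen, had 12.4, 14.2 and 12.9 CPM in Hoxb13hd, against 7.80, 8.13 and 10.53 CPM in wild type. The groups did not overlap. Ndrg1 rose by 0.58 (SE 0.14, adjusted p 0.0405). A further 10 genes had an unadjusted p under 0.05 and a higher level without passing, and 1, Ldhb, a lower one, where 9.91% of all genes were higher at that p and 20.4% differed in either direction. Without overlap between libraries 10 genes were higher and 3 lower, against 12.8% and 12.6% of all genes. The median was 0.18 for enzymes, 0.29 for transport and flux genes and 0.010 for hypoxia response genes, beside 0.0031 over all genes. Hif1a had a log2 difference of -0.13 (SE 0.070, adjusted p 0.338), with all 3 Hoxb13hd libraries below wild type.

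None of the 5 transport and flux genes passed, with log2 differences of 0.15 for Pfkfb3, 0.29 for Pdk1, 0.29 for Slc2a1, 0.44 for Slc16a3 and 0.63 for Slc2a3. Slc2a3 had 304, 435 and 348 CPM in Hoxb13hd, against 250.3, 248 and 203 CPM in wild type. Every Hoxb13hd library was above every wild type library (log2 difference 0.63, SE 0.16, adjusted p 0.0504). Slc16a3, the lactate exporter, averaged 143 ± 24.0 CPM in Hoxb13hd and 105 ± 11.6 CPM in wild type (SD, n = 3 each; log2 difference 0.44, SE 0.13, adjusted p 0.0886). Slc2a1 averaged 320.2 ± 30.7 CPM in Hoxb13hd and 262 ± 24.9 CPM in wild type (log2 difference 0.29, SE 0.089, adjusted p 0.0936). Aldoa had 964, 1163 and 1112 CPM in Hoxb13hd, against 785, 902 and 832 CPM in wild type. The groups did not overlap, and Hoxb13hd replicate 1 was the lowest of the mutants (log2 difference 0.36, SE 0.093, adjusted p 0.0552). Eno1 had a log2 difference of 0.43 (adjusted p 0.0802) and passed once the reads of its copies were added (0.46, adjusted p 0.0345). Gapdh stood at 894 ± 50.1 CPM in Hoxb13hd and 912 ± 59.2 CPM in wild type, and its log2 difference with copies added did not pass (0.10, adjusted p 0.472). The sign was opposite for Ldhb. Ldhb had 59.9, 47.2 and 52.4 CPM in Hoxb13hd, against 71.1, 60.8 and 75.4 CPM in wild type. All Hoxb13hd libraries were below wild type (log2 difference -0.38, SE 0.11, adjusted p 0.0701). The hypoxia targets other than Ndrg1 were divided, with Egln3, a prolyl hydroxylase induced by the factor it restrains, at 0.44 (adjusted p 0.103), Bnip3 at -0.054, Vegfa, the vessel growth factor, at 0.060 and P4ha1 at -0.17 (adjusted p 0.318). Of the 17 enzymes 11 had a positive and 6 a negative log2 difference, and of the 35 genes 22 and 13. Among the positive ones Ldha was at 0.41 (adjusted p 0.104), Pgk1 at 0.35, Hk2 at 0.33, Tpi1 at 0.29 and Gpi1 at 0.15. The negative ones besides Ldhb and Gapdh were Pfkp at -0.35, Aldoc at -0.044, Pfkm at -0.039 and Hk1 at -0.025.

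These calls changed when single libraries were left out. Pfkl had an adjusted p of 0.078 without Hoxb13hd replicate 2, 0.067 without Hoxb13hd replicate 3, 0.0822 without wild type replicate 1 and 0.057 without wild type replicate 3. Over the whole table these fits called 51, 71, 57 and 110 genes in that order, against 517 with all libraries. Ndrg1 had an adjusted p of 0.151 without Hoxb13hd replicate 2, 0.0985 without Hoxb13hd replicate 3 and 0.178 without wild type replicate 1. It had 0.0896 without wild type replicate 2, where 551 genes were called over the whole table. With each library left out in turn, the log2 difference of Pfkl was 0.43 to 0.56 and that of Ndrg1 0.50 to 0.73. Without Hoxb13hd replicate 1 instead, 7 of the 35 genes were called, 6 of them higher and 1 lower, with 676 genes over the whole table. The enzymes' median log2 difference from the wild type mean was 0.087, 0.23 and 0.22 in the Hoxb13hd libraries and -0.073, 0.079 and -0.018 in wild type. Ndrg1 also missed the threshold with Xist as a covariate (adjusted p 0.0655) and with limma on log2(FPKM + 0.1) (adjusted p 0.177). Marker levels of the trunk and tail and of nerve, liver, heart and blood cells were set beside these values. Trunk markers stood at 328, 368 and 321 CPM in Hoxb13hd, against 278, 305 and 269.9 CPM in wild type, with 9 of 12 higher, 0 called, 5 higher and 1 lower at an unadjusted p under 0.05, and 6 higher without overlap. The tail bud gene T averaged 21.7 ± 4.84 CPM in Hoxb13hd and 9.07 ± 5.49 CPM in wild type (SD, n = 3 each; log2 difference 1.26, SE 0.43, adjusted p 0.135), and Cdx2 13.9 ± 4.17 CPM in Hoxb13hd and 4.74 ± 3.25 CPM in wild type (log2 difference 1.55, SE 0.44, adjusted p 0.0836). Neuron markers stood at 353, 234 and 366 CPM in Hoxb13hd and 571, 393 and 565 CPM in wild type, with 14 of 15 lower, 4 called lower and 12 lower at an unadjusted p under 0.05. Liver bud and visceral endoderm markers stood at 161, 56.3 and 117 CPM in Hoxb13hd and 738, 343 and 242 CPM in wild type, with 16 of 16 lower, 0 called and 5 at an unadjusted p under 0.05. Heart muscle markers were lower in 14 of 14 tested, with 0 called and 2 at an unadjusted p under 0.05. Primitive erythroid markers were higher in 11 of 13, with 3 at an unadjusted p under 0.05 and 1 called, the globin gene Hba-a2, which can share reads with a near-identical neighbour and is uncertain. No marker of the trunk, neuron, liver or heart lists was at 0 counts in either group. The part of these lists in the rise of Pfkl and Ndrg1 was not tested.

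**Figure D4:**
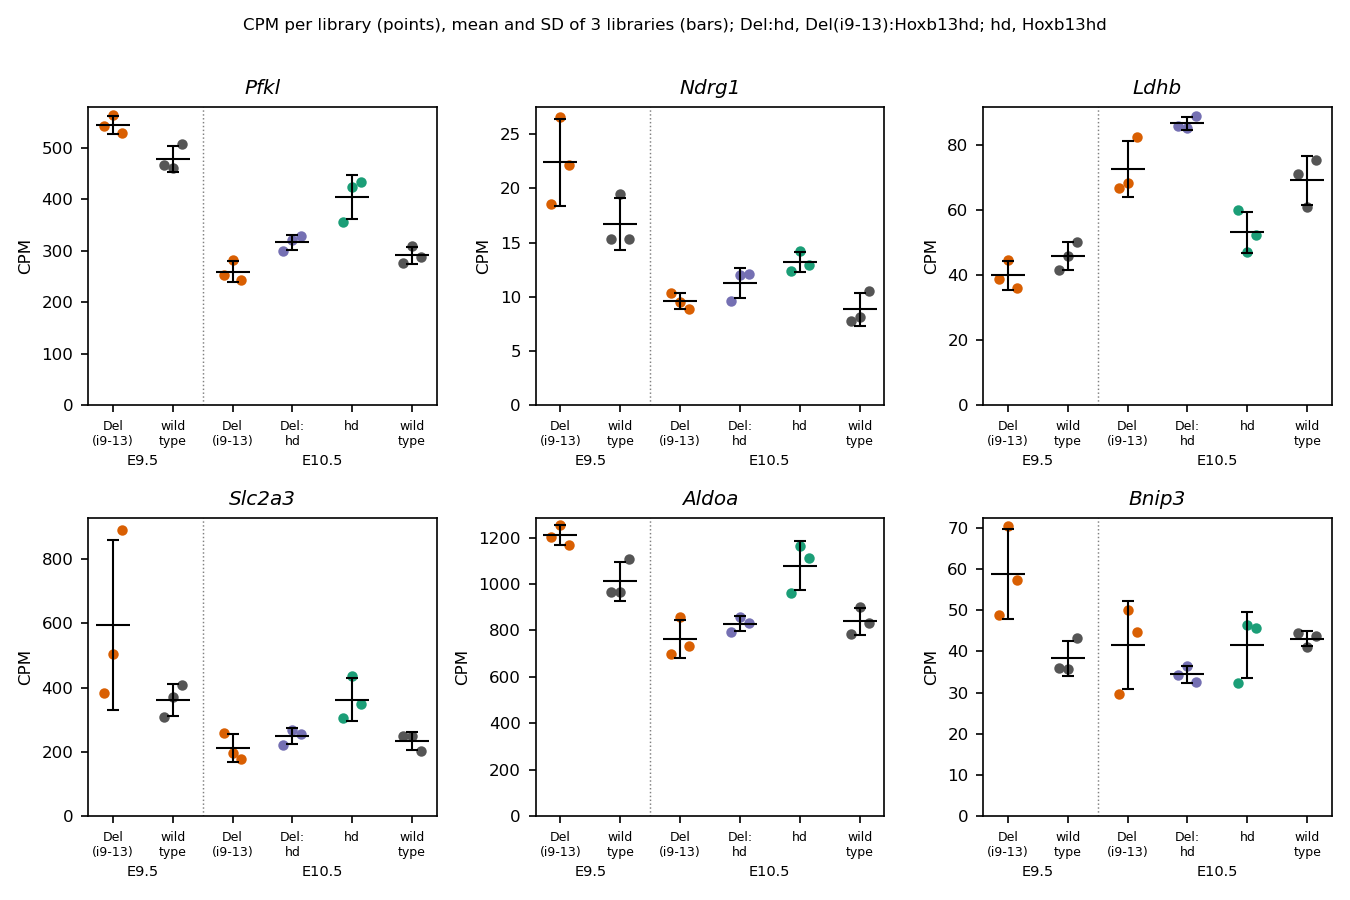
CPM of 6 of the listed genes in each of the 18 libraries (points), by group, with the group mean (horizontal line) and SD (bar, n = 3). Pfkl lies at 356 to 433 CPM in Hoxb13hd and 275 to 309 CPM in E10.5 wild type, Ldhb is highest in Del(i9-13):Hoxb13hd, and Slc2a3 is highest in E9.5 Del(i9-13) replicate 3.

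With both changes together, in Del(i9-13):Hoxb13hd, the listed genes lay close to wild type and 0 of 35 passed, where 0.401% of all genes (69 of 17202) were called. DESeq2, which called 326 genes (1.9%) over the whole table, and limma also called 0 of the 35. In Del(i9-13):Hoxb13hd 3 genes were higher and 1 lower at an unadjusted p under 0.05, against 6.47% and 6.06% of all genes, and 3 were higher and 4 lower without overlap, against 11.2% and 10.3%. Medians were -0.020 for enzymes, 0.058 for transport and flux genes and -0.096 for hypoxia response genes. The smallest p belonged to Ldhb, Egln3, Ndrg1 and Pfkp. Ldhb had 85.9, 85.2 and 89.0 CPM in Del(i9-13):Hoxb13hd, against 71.1, 60.8 and 75.4 CPM in wild type. The groups did not overlap (log2 difference 0.33, SE 0.10, adjusted p 0.222). Egln3 had 8.49, 6.60 and 7.38 CPM in Del(i9-13):Hoxb13hd, against 5.21, 5.08 and 6.27 CPM in wild type. The mutant libraries were the 3 highest (log2 difference 0.44, SE 0.14, adjusted p 0.222). Ndrg1 had 9.64, 12 and 12.1 CPM in Del(i9-13):Hoxb13hd, against 7.80, 8.13 and 10.53 CPM in wild type. The groups overlapped (log2 difference 0.35, SE 0.14, adjusted p 0.319). Pfkp had 8.18, 8.98 and 11.3 CPM in Del(i9-13):Hoxb13hd, against 9.84, 11.6 and 17.9 CPM in wild type. Wild type replicate 3 was far above the other 2, and the groups overlapped (log2 difference -0.47, SE 0.19, adjusted p 0.349). For Hif1a the log2 difference was -0.082 (SE 0.070, adjusted p 0.671). Bnip3, P4ha1, Higd1a, a small protein of the mitochondrial inner membrane, and Pdk1 were the 4 genes with every mutant library below wild type, at log2 differences of -0.32, -0.16, -0.21 and -0.13. Head markers were higher in 5 of 6 tested, 4 at an unadjusted p under 0.05, with Lhx2 called (log2 difference 0.53, SE 0.10, adjusted p 0.0443). Heart muscle markers were lower in 14 of 14, with 0 called and 6 at an unadjusted p under 0.05. The 16 liver bud and visceral endoderm markers divided into 8 higher and 8 lower, and neuron markers higher in 9 of 15. The part of these lists in the values of the 35 genes was not tested.

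Set against Hoxb13hd alone, Del(i9-13):Hoxb13hd was lower in most enzymes and transporters and higher in Ldhb, the single listed gene of 35 that was called, where 0.674% of all genes were called higher (0.959% in either direction, 165 genes). Ldhb, whose subunit favours the conversion of lactate to pyruvate, had 85.9, 85.2 and 89.0 CPM in Del(i9-13):Hoxb13hd, against 59.9, 47.2 and 52.4 CPM in Hoxb13hd. The mutant groups were well separated. Ldhb was higher by 0.71 on the log2 scale (SE 0.11, adjusted p 0.00944). Its adjusted p was 0.0506 without Hoxb13hd replicate 2 and 0.052 without replicate 3, where 36 and 39 genes were called over the whole table. At an unadjusted p under 0.05, 1 gene was higher and 12 were lower, against 8.8% and 6.41% of all genes, and 1 was higher and 11 lower without overlap, against 12.2% and 10.3%. The 12 lower genes did not pass. Among them Pfkl had -0.36 (adjusted p 0.0675), Aldoa -0.38 (0.0687), Slc2a1 -0.34 (0.08) and Slc2a3 -0.54 (0.112). This comparison shares the Hoxb13hd libraries with the one against wild type, so the 2 are not independent. Without Hoxb13hd replicate 1, 5 of the 35 genes were called, with 412 over the whole table. The median was -0.19 for enzymes, -0.39 for transport and flux genes and -0.010 for hypoxia response genes, beside -0.0098 over all genes. Hif1a had a log2 difference of 0.045 (SE 0.070, adjusted p 0.823). Neuron markers were at 534, 541 and 511 CPM in Del(i9-13):Hoxb13hd and 353, 234 and 366 CPM in Hoxb13hd, higher in 14 of 15 with 1 called, and liver bud and visceral endoderm markers at 383, 426 and 340.3 CPM in Del(i9-13):Hoxb13hd and 161, 56.3 and 117 CPM in Hoxb13hd. Of the 12 trunk markers 6 were lower, 3 of them at an unadjusted p under 0.05, and 0 were called. Cdx2 averaged 4.41 ± 0.264 CPM in Del(i9-13):Hoxb13hd and 13.9 ± 4.17 CPM in Hoxb13hd (adjusted p 0.103) and T 10.8 ± 1.27 CPM in Del(i9-13):Hoxb13hd and 21.7 ± 4.84 CPM in Hoxb13hd (adjusted p 0.29). Of 6 head markers tested 1, Lhx2, was called higher. The part of these lists in the difference in Ldhb was not tested. Cdx2 and T were picked from the trunk list as tail bud genes, and neither passed in any comparison of 2 groups. In Del(i9-13) against wild type at E10.5 Cdx2 had a log2 difference of -0.26 (adjusted p 0.914) and T -0.27 (0.908). In Del(i9-13):Hoxb13hd against wild type they had -0.10 (0.947) and 0.26 (0.849). In Del(i9-13):Hoxb13hd against Del(i9-13) they had 0.16 (0.898) and 0.52 (0.594).

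Set against Del(i9-13) alone, Del(i9-13):Hoxb13hd was higher in several enzymes, and 0 of the 35 genes passed, where 0.907% of all genes (156) were called. DESeq2 called 5 of the 35, and limma with a filter on low FPKM called 1, Gapdh. Over the whole table DESeq2 called 673 genes (3.91%) and limma with that filter 1.57%. At an unadjusted p under 0.05, 10 were higher and 0 lower, against 9.49% and 6.6% of all genes. Without overlap 10 were higher and 1 lower, against 11.3% and 8.99%. The smallest p belonged to Gapdh, Eno1, Pfkfb3 and Ddit4. Gapdh had 965, 1018 and 934 CPM in Del(i9-13):Hoxb13hd, against 602, 601 and 836 CPM in Del(i9-13). The groups did not overlap (log2 difference 0.52, SE 0.11, adjusted p 0.0525), and with copies added the difference was 0.32 (adjusted p 0.0656). Eno1 had 739, 704 and 789 CPM in Del(i9-13):Hoxb13hd, against 632, 496 and 464 CPM in Del(i9-13). Again no library of the 2 groups overlapped (log2 difference 0.49, SE 0.12, adjusted p 0.0835). Pfkfb3 had 35.1, 32.5 and 34.2 CPM in Del(i9-13):Hoxb13hd, against 27.6, 24.7 and 26.5 CPM in Del(i9-13). The groups were separate (log2 difference 0.37, SE 0.098, adjusted p 0.0928). Ddit4, an inhibitor of mTOR signalling under stress, had 28.7, 30.1 and 30.4 CPM in Del(i9-13):Hoxb13hd, against 20.0, 22.5 and 19.6 CPM in Del(i9-13). The mutant with both changes was higher in all libraries (log2 difference 0.52, SE 0.15, adjusted p 0.121). The regulator gene Hif1a had -0.077 (SE 0.070, adjusted p 0.63). Without Del(i9-13) replicate 1, which stood apart above, 5 of the 35 genes were called (Bnip3, Eno1, Gapdh, Hk2 and Pfkfb3), with 1453 genes over the whole table. Without Del(i9-13) replicate 3 Gapdh was called. Medians were 0.12 for enzymes, 0.21 for transport and flux genes and -0.0058 for hypoxia response genes, beside -0.017 over all genes. Liver bud and visceral endoderm markers were at 383, 426 and 340.3 CPM in Del(i9-13):Hoxb13hd, against 2395, 435 and 385 CPM in Del(i9-13), lower in 14 of 16 with 0 called, 4 at an unadjusted p under 0.05 and a median log2 difference of -1.24. Heart muscle markers were lower in 14 of 14, with 0 called and 0 at that p. Nuclear respiratory chain genes were lower in 22 of 26, with 0 called, 0 at that p and a median of -0.12. The part of these lists in the enzyme values was not tested.

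Whether the deletion and hd acted on the listed genes other than additively was tested as the interaction at E10.5, that is, the Del(i9-13):Hoxb13hd minus Hoxb13hd difference less the Del(i9-13) minus wild type difference. Of the 35 genes 0 passed, where 0.523% of all genes (90) were called. At an unadjusted p under 0.05, 3 were above 0 and 0 below, against 6.57% and 5.14% of all genes (11.7% in all). DESeq2 called 2, Gapdh and Ldhb, among 297 genes (1.73%) over the whole table, and limma 0 of the 35. Ldhb came nearest, at 0.64 (SE 0.15, adjusted p 0.0945), followed by Gapdh at 0.55 (adjusted p 0.19), Ddit4 at 0.52 (adjusted p 0.362) and Ldha at -0.37 (adjusted p 0.456). Gapdh with its copies had 0.22 (adjusted p 0.441). Ldhb was called without Hoxb13hd replicate 1 (adjusted p 0.0456) and Gapdh without Del(i9-13) replicate 3 (adjusted p 0.014). Hif1a had a log2 difference of 0.050 (SE 0.099, adjusted p 0.875).

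The E9.5 and E10.5 differences between Del(i9-13) and wild type had opposite median signs, and the difference of the differences was tested over 12 libraries. Of the 35 genes 0 passed, where 0.0453% of all genes (8 of 17670) were called. DESeq2 called 2, Gpi1 and Pfkl, among 88 genes (0.498%) over the whole table, and limma 0 of the 35. At an unadjusted p under 0.05, 11 listed genes were above 0 and 0 below, against 1.9% and 4.96% of all genes, and 31 had a positive estimate. The hypoxia response genes were positive in 12 of 12, with a median of 0.25, and the enzymes had a median of 0.26 and the transport and flux genes of 0.41, beside -0.026 over all genes. The smallest p belonged to Slc2a1 at 0.57 (SE 0.16, adjusted p 0.412), Pfkl at 0.34 (adjusted p 0.473), Gpi1, the isomerase between hexokinase and phosphofructokinase, at 0.30 (adjusted p 0.48) and Aldoa at 0.38 (adjusted p 0.511). Hif1a had a log2 difference of -0.072 (SE 0.11, adjusted p 0.972). Library type changed with stage, and cancels here if it acts alike in both genotypes, which was not tested.

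**Figure D5:**
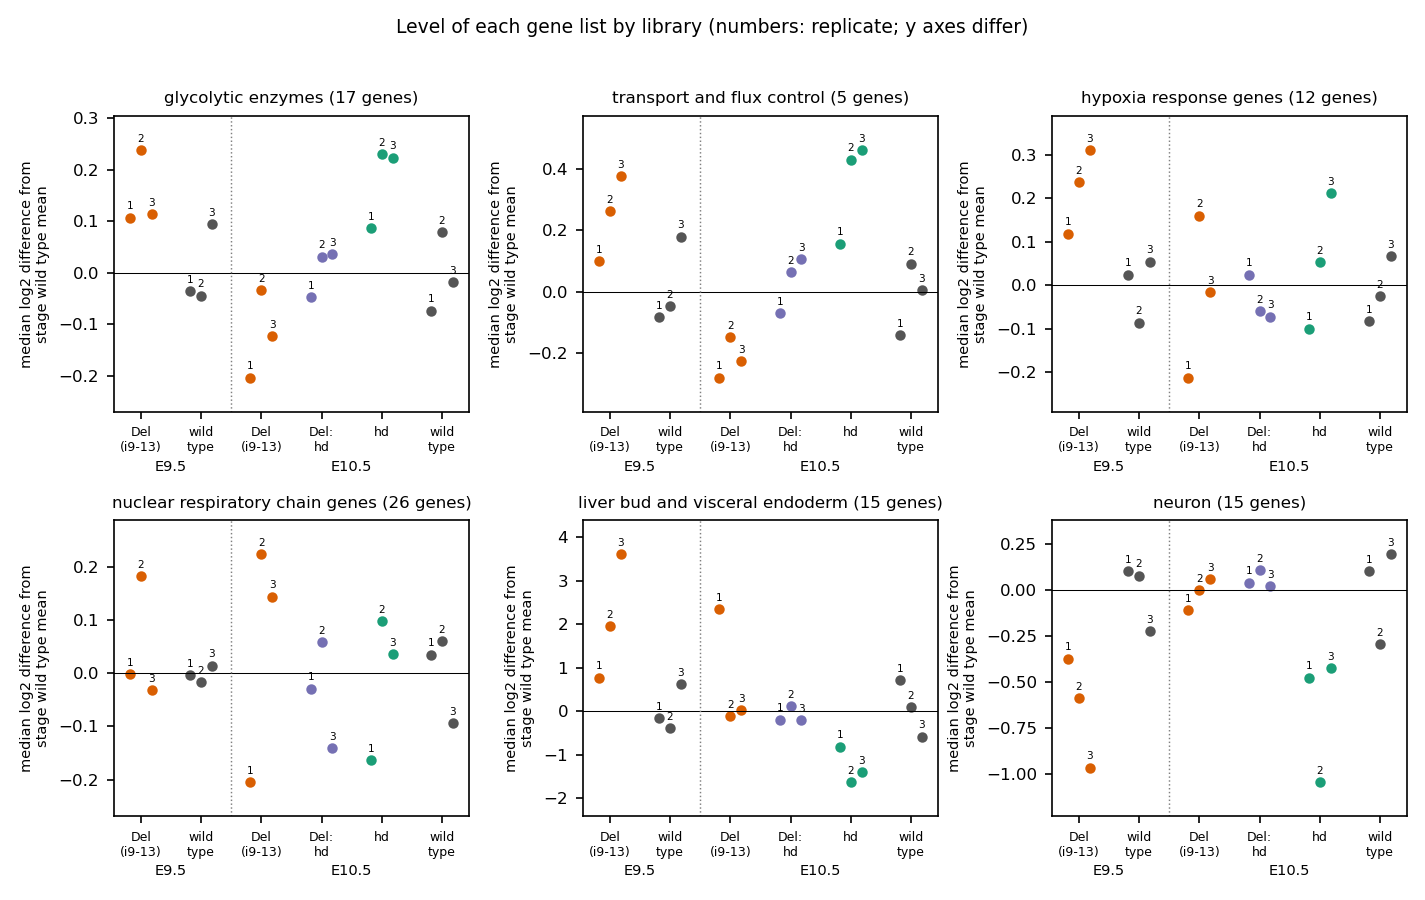
Median log2 difference from the wild type mean of the same stage over each of 6 gene lists, for each library (numbers are replicate numbers), by group. The enzymes stand at 0.24 in E9.5 Del(i9-13) replicate 2 and at 0.23 in Hoxb13hd replicate 2, and the respiratory chain genes at -0.20 in E10.5 Del(i9-13) replicate 1.

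Other genes of the pathway, listed beside the 35, gave few calls. Among 25 further glycolysis genes, 21 of them tested, Tigar, a phosphatase that lowers glycolytic flux, was the one called. Tigar fell to 13.2 ± 0.493 CPM in E10.5 Del(i9-13), against 18.4 ± 1.83 CPM in wild type (SD, n = 3 each; log2 difference -0.48, SE 0.093, adjusted p 0.04). In that comparison 0.488% of all genes were called, and 0.907% in Del(i9-13):Hoxb13hd against Del(i9-13). Tigar was higher in Del(i9-13):Hoxb13hd, at 18.8 ± 0.563 CPM, than in Del(i9-13), at 13.2 ± 0.493 CPM (log2 difference 0.51, adjusted p 0.0216). Both comparisons share the Del(i9-13) libraries. Of 33 further hypoxia pathway genes, 32 tested at E10.5, Lox, a collagen cross-linking enzyme, was called: it fell to 3.54 ± 0.142 CPM in Hoxb13hd, against 5.54 ± 1.16 CPM in wild type (log2 difference -0.65, adjusted p 0.045), and was higher in Del(i9-13):Hoxb13hd, at 5.85 ± 0.262 CPM, than in Hoxb13hd (log2 difference 0.73, adjusted p 0.0483). In the pentose phosphate pathway, which branches off glycolysis, Pgd was the 1 gene of 9 called in any comparison. Pgd stood at 138 ± 14.2 CPM in Hoxb13hd and 101 ± 12 CPM in wild type (log2 difference 0.44, adjusted p 0.0222), where 1.42% of all genes were called higher. Genes of the citric acid cycle (18 tested), of pyruvate and lactate handling (19) and of the nuclear respiratory chain (26) gave 0 calls by edgeR in Hoxb13hd against wild type, with 3, 6 and 2 genes at an unadjusted p under 0.05, against 20.4% of all genes. Their medians there were 0.037, -0.049 and -0.021, beside 0.18 for the 17 enzymes. The 13 amino acid and ER stress genes tested were divided in Hoxb13hd against wild type, with 8 positive and 5 negative log2 differences and a median of 0.14. At an unadjusted p under 0.05, 1 was higher and 4 were lower, against 20.4% of all genes in either direction. Of the 13, 0 were called higher and 3 lower, where 1.59% of all genes were called lower. Hspa5, a chaperone of the endoplasmic reticulum, fell to 1066 ± 51.8 CPM in Hoxb13hd against 1321 ± 37.4 CPM in wild type (adjusted p 0.0328). Xbp1 fell to 81.5 ± 8.14 CPM in Hoxb13hd against 115 ± 6.82 CPM in wild type (adjusted p 0.0105). Herpud1 fell to 27.3 ± 2.41 CPM in Hoxb13hd against 35.5 ± 2.43 CPM in wild type (adjusted p 0.0405).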

How the data were processed

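RNA of headless mouse embryos was measured by RNA-seq in 18 libraries, 3 per group, grouped by their titles. Every column of both deposited tables was assigned to a library, and 0 were left unused. Per the submitters' processing notes, the authors trimmed reads with cutadapt 1.18, aligned them to mm10 with STAR 2.7.10a and used Cufflinks 2.2.1. The deposited count table holds whole-number read counts of 55141 genes. The FPKM table, deposited by the authors, holds fragments per kilobase of transcript, scaled to library size, for 55138 genes. The sources used here do not name the counting program, its annotation or whether it used strand, so overlapping genes and near-identical copies may share reads.

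The tests were run with edgeR 4.0.16 in R 4.3.3 (filterByExpr at a minimum count of 10 and a total of 15, TMM scaling, robust quasi-likelihood test), fitted separately on the E9.5 and E10.5 libraries, and for the stage difference on the 12 Del(i9-13) and wild type libraries. A gene was called at a Benjamini-Hochberg adjusted p under 0.05, taken over every gene in the fit. CPM are counts scaled to library size by TMM. Replicates of a group differed beyond counting noise (chi-square per degree of freedom over genes 9.73 to 50.8). Levels of different genes were compared in FPKM alone. Aldoa has 2 identifiers, and the one with 450446 counts was used, not the one with 1093. Copies were found with BLAST 2.17.0 on GENCODE M21 transcripts. Promoters came from RefSeq (GRCm38.p6), and Slc2a3, Bnip3l and Ndrg1 had no entry. On simulated counts with 200 changed genes, the test recovered 72% of 2-fold changes at E9.5 and 67% in Hoxb13hd against wild type, and 49% and 37% of 1.5-fold changes. The simulated spread depended only on a gene's level and was alike in all groups, with no outlying library. Recovery in the real libraries may therefore differ. Alternatives were RLE scaling, other filters, DESeq2 1.42.0, limma 3.58.1 on log2 FPKM (pseudocount 0.1 or 1), Xist as a covariate, a replicate block, leaving out each library, and, chosen after seeing the data, adding the reads of copies.

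The genes named by rule were those called or, where none was, the 4 with the smallest p, with Hif1a in every comparison. Other genes were also given values outside this rule. Among them were Slc2a3 and Slc2a1 at E9.5, Slc2a3, Aldoa and Ldhb in Hoxb13hd, and the markers T and Cdx2. The 35 genes and all lists were chosen with earlier results of these data known. A median over a list is a description and has no test.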

Additional observations from a re-analysis of the deposited data

How the results depend on the processing

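The number of the 35 genes called depended on the test and on single libraries. Shares in brackets are of all genes called in that setting. At E9.5, Del(i9-13) against wild type had 0 calls, 5 with no filter on low counts (1.85%) and 4 with DESeq2 (2.05%). The E10.5 Del(i9-13) and wild type comparison had 0 calls, 1 with DESeq2 (1.6%) and 0 to 1 with a library left out. Hoxb13hd against wild type had 2 calls, 4 with no filter (1.61%), 3 with the filter at 1 CPM (3.55%), 3 with copies added (3.01%) and 9 with DESeq2 (7.21%). That comparison had 1 with Xist as a covariate (1.58%) and 1 with limma in each of its 3 forms (0.437% to 2.23%). It had 1 on the 2 groups alone (2.02%) and 0 to 7 with a library left out. Del(i9-13):Hoxb13hd against Hoxb13hd had 1 call, 4 with no filter (1.01%), 6 with DESeq2 (3.83%), 2 on the 2 groups alone (1.94%) and 0 to 5 with a library left out. Del(i9-13):Hoxb13hd against Del(i9-13) had 0 calls, 1 with RLE scaling (0.866%), 1 with no filter (0.632%) and 5 with DESeq2 (3.91%). It had 1 with limma on either pseudocount after a filter (1.57%) and 0 to 5 with a library left out. The interaction had 0 calls, 1 with no filter (0.391%), 2 with DESeq2 (1.73%) and 0 to 1 with a library left out. The stage difference had 0, and 2 with DESeq2 (0.498%). The cause of these differences was not tested. Calls over all genes are given with their range over the other settings and then with a library left out. They were 58 (20 to 537 and 40 to 53) in Del(i9-13) against wild type at E9.5, 84 (55 to 276 and 40 to 285) in the same pair at E10.5, 69 (21 to 326 and 14 to 41) in Del(i9-13):Hoxb13hd against wild type, 517 (132 to 1240 and 51 to 676) in Hoxb13hd against wild type. They were 165 (45 to 658 and 36 to 412) in Del(i9-13):Hoxb13hd against Hoxb13hd, 156 (76 to 673 and 58 to 1453) in Del(i9-13):Hoxb13hd against Del(i9-13), 90 (47 to 297 and 40 to 174) in the interaction and 8 (1 to 88 and 3 to 24) in the stage difference.

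After group means were taken out, same-number libraries of different groups correlated at -0.255 to 0.184 (6 of 21 over 0.1). With 3 libraries in a group, such correlations cannot show whether replicate numbers mark a shared litter or batch. With a replicate block the calls were 7 in Hoxb13hd against wild type and 5 in Del(i9-13):Hoxb13hd against Hoxb13hd, and 0 in the other 6 tests. Over the whole table those 2 fits called 451 genes (2.62%) and 223 genes (1.3%) in that order.

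Most list medians moved by less than the spread between libraries. The hypoxia median at E9.5, 0.24, was 0.15 to 0.30 with a library left out. In Del(i9-13):Hoxb13hd against wild type, the enzyme median of -0.020 was -0.041 to 0.047 with a library left out and the hypoxia median of -0.096 was -0.030 with limma. Against Hoxb13hd the enzyme median of -0.19 was -0.11 with limma on log2(FPKM + 1) and -0.091 with limma and no filter, and against Del(i9-13) the median of 0.12 was 0.19 with limma and 0.05 to 0.16 with a library left out. Hif1a kept its sign in Hoxb13hd against wild type, where its log2 difference of -0.13 was -0.16 to -0.083 with a library left out. Elsewhere Hif1a changed sign in 5 places with a library left out. Its range was -0.092 to 0.002 at E9.5, with the positive value without Del(i9-13) replicate 2, and -0.049 to 0.056 in Del(i9-13) at E10.5, positive without wild type or Del(i9-13) replicate 1 (0.019 and 0.056). It was -0.0046 to 0.098 in the interaction, negative without Del(i9-13) replicate 1, and 0.014 in the stage difference without E10.5 Del(i9-13) replicate 3.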
